A study of Arabidopsis thaliana with 18 samples.

Results

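The comparison set AOpro(mut)-AO shoots against AOpro(wt)-AO shoots before any nitrogen (N) starvation treatment, on 6 of the 18 one-colour Agilent Arabidopsis arrays of the study. The 6 arrays were chosen by their sample labels as the 3 arrays of the nitrate-non-inducible AO line at 0 d and the 3 arrays of the wild-type AO line at 0 d. Both lines carried the embryo-lethal ao null T-DNA allele fin4-2 in homozygous form and lived on an introduced copy of the AO locus driven by its own promoter. In AOpro(mut)-AO plants the binding site for NIN-like proteins (NLPs) in that promoter was mutated, and in AOpro(wt)-AO plants it was intact. One transgenic line stood for each construct (line #1), so that the effect of the construct and other differences between these 2 lines cannot be told apart. Seeds had 1 day of light and 2 days of dark, and the seedlings then grew for 17 days in hydroponic 1/10MS solution under continuous light. Whole shoots of a few seedlings were pooled for each array.

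AO encodes L-aspartate oxidase, the plastid enzyme that opens the de novo pathway to nicotinamide adenine dinucleotide (NAD). Quinolinate synthase (QS) and quinolinate phosphoribosyltransferase (QPT) complete the plastid part of the pathway, and later enzymes and a salvage route from nicotinamide make and recycle NAD. NLPs are transcription factors that are activated by nitrate and bind nitrate-responsive elements in promoters. In leaves, AO is also known from work on stomatal immunity, in which its product feeds oxidative bursts.

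The site that separates the constructs lies on chromosome 5 in the AO promoter, upstream of the start from which the study counts bases. The sequences of both constructs across bases -360 to -344 are shown because this site is the designed difference between the lines. They were read from the study's oligonucleotides, with the NLP-binding site in capitals.
AOpro(mut)-AO: tagttgTTGCAGTGgga
AOpro(wt)-AO: tagttgTGGCCGTTgga
The mutated site differs from the intact site by the substitutions G2T, C5A and T8G, with positions counted from 1 at the 5′ end of the capitals and the wild-type base given first. The flanking bases shown were the same in both.

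The arrays measured 26716 genes that could be named through RefSeq, and 20668 of these had a probe well above background on all 3 arrays of at least one line and were tested. Levels are given as normalized log2 signals, computed from the processed intensity of the scanner software so that each array's 75th percentile is at 0. A gene was called when the adjusted p of the limma fit was at most 0.05 and the lines differed at least 2-fold, which is a log2 fold change of 1. Genes were described in 2 parts, because 1014 tested genes from AT5G49520 to AT5G61610 on chromosome 5 formed a range of shared change. That range is reported apart, after the 19654 tested genes outside it. The 75th percentile of the raw signal was 2349 to 2948 on the AOpro(mut)-AO arrays and 2507 to 2817 on the AOpro(wt)-AO arrays, and 72.6% to 76.0% of spots were well above background. Arrays correlated at 0.9935 to 0.997 within a line and at 0.9797 to 0.9858 between the lines. All 6 leaf marker genes were above background on all arrays, with summed levels of 682 to 810 in AOpro(mut)-AO and 715 to 811 in AOpro(wt)-AO shoots on the scale where 1 is the 75th percentile. Sums over 10 root markers were 4.96 to 5.68 in AOpro(mut)-AO and 6.56 to 8.29 in AOpro(wt)-AO shoots, with EXPA7, EXPA18 and IRT1 above background on no array. Replicate numbers 1 and 3 of both lines lay on shared slides, which allowed differences within a slide.

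AO itself (AT5G14760) was lower on every AOpro(mut)-AO array. Its normalized log2 signal was -1.43, -1.59 and -0.99 on the AOpro(mut)-AO arrays, against 1.5, 1.41 and 1.62 on the AOpro(wt)-AO arrays. This is 7.2-fold lower in AOpro(mut)-AO shoots, or -2.85 ± 0.18 as log2 fold change with its standard error (adjusted p = 1.65e-08, limma). A second probe of AO gave a smaller difference of -1.4 in the same direction.

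The rest of the NAD pathway outside the range moved little. Of 13 tested members of the NAD synthesis and salvage list outside the range, AO was the only one called, and the median log2 fold change of the list was -0.14, beside -0.02 over all genes tested outside the range. QPT, the last plastid enzyme, had 2.01 and 1.94 on 2 AOpro(mut)-AO arrays and 2.08, 2.07 and 2.2 on the AOpro(wt)-AO arrays, with a log2 fold change of -0.14 (adjusted p = 0.0836, limma). One AOpro(mut)-AO spot of QPT was marked as an outlier and was left out of that fit. NADS, the NAD synthetase, gave -0.15 (adjusted p = 0.104), and the 3 NAD kinases NADK1, NADK2 and NADK3 gave 0.15, -0.04 and 0.31. In the salvage route, NAPRT2, a nicotinate phosphoribosyltransferase, gave -0.48 (adjusted p = 0.00162, limma) with arrays that did not overlap, while NAPRT1 gave 0.02. The nicotinamidases NIC1 and NIC2 gave 0.06 and 0.11. Among the NAD carriers, NDT1 gave -0.45, NDT2 -0.14 and the peroxisomal carrier PXN -0.18. QS and NMNAT, the other 2 tested members, lay inside the range and are given with it.

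Over all genes tested, 717 (3.47%) were called higher and 447 (2.16%) lower in AOpro(mut)-AO shoots. Outside the range, 331 genes (1.68% of those tested) were called higher and 445 (2.26%) were called lower. The arrays of the lines did not overlap for 329 of the genes called higher and 441 of those called lower. Of all genes tested outside the range, 51.9% had arrays that did not overlap. A difference of at least 4-fold (log2 fold change of 2) was found for 43 genes called higher and 80 called lower. Within both slides that held arrays of both lines, 331 of the 331 genes called higher and 442 of the 445 called lower had the sign of the fit. Arrays that do not overlap give this sign by construction, so these counts are no separate check. The split between the directions depended on the background correction. With normexp in place of the processed signal, 170 genes were called higher (0.865%) and 124 lower (0.631%), so that 57.8% of calls were increases, against 42.7% with the processed signal. Quantile normalization after normexp gave 91 higher and 209 lower, or 30.3% increases. All 331 genes called higher kept their sign with normexp, and 327 of the 445 called lower did. With both background corrections, 164 genes were called higher and 122 lower.

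**Figure D1:**
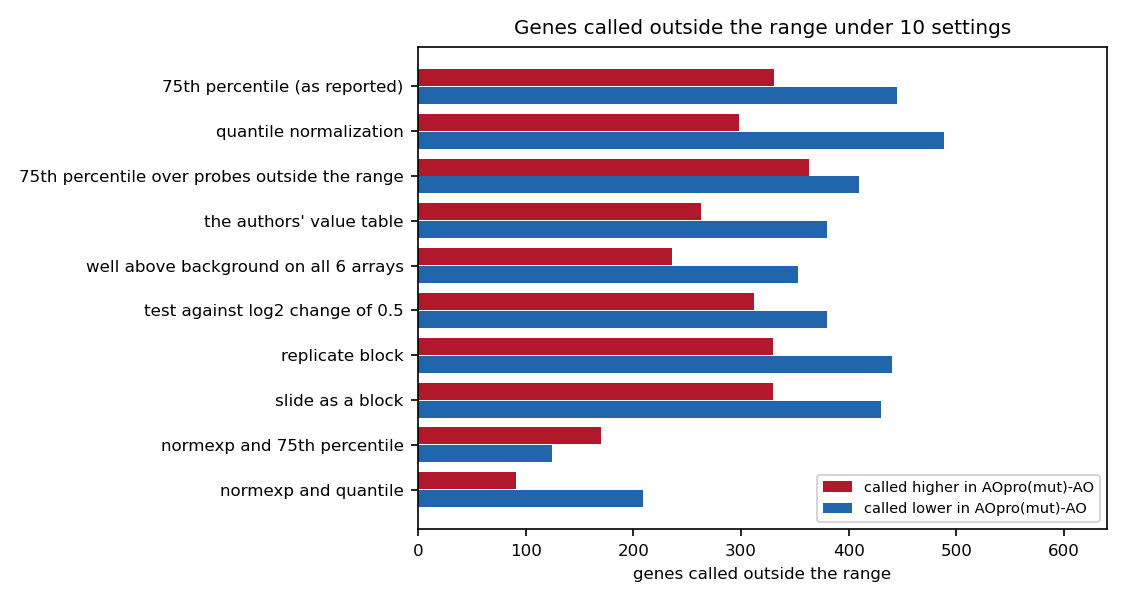
Number of genes called outside the range (x axis) under 10 processing settings (y axis), with red bars for genes called higher and blue bars for genes called lower in AOpro(mut)-AO than in AOpro(wt)-AO shoots. Both normexp settings gave fewer calls than the other 8, with 170 higher and 124 lower for normexp alone.

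The 15 largest decreases with signal above background on all 6 arrays included AO and members of the defence lists given below. EDA36, a serine hydroxymethyltransferase gene also named SHM5, had the largest of them. Its signal was -5.79, -5.61 and -5.45 in AOpro(mut)-AO shoots, against -2.15, -2.48 and -2.51 in AOpro(wt)-AO shoots. EDA36 thus differed by -3.24 ± 0.19 (log2 fold change and standard error, adjusted p = 5e-09, limma). AT4G14390, which encodes an ankyrin repeat protein, followed at -2.91, with -4.38, -4.39 and -4.41 in AOpro(mut)-AO against -1.33, -1.42 and -1.7 in AOpro(wt)-AO. For both genes the arrays of the lines did not overlap. The remaining genes among the 15 largest decreases, AO and those described below apart, were AT4G10860 (-2.87), FTM1 (-2.73), AT5G63225 (-2.73), AT3G29631 (-2.72), AT3G28510 (-2.58), AT1G62333 (-2.56), HO4 (-2.49) and AT1G33950 (-2.47). FTM1 is annotated as a stearoyl-ACP desaturase, AT5G63225 as a family 17 glycosyl hydrolase, AT3G28510 as an AAA-type ATPase and AT1G33950 as a member of the avirulence-induced AIG1 family. HO4 is a heme oxygenase. With normexp, AT4G10860, AT3G29631, AT1G62333, HO4 and AT1G33950 kept the direction and were no longer called, at -0.87, -1.04, -0.85, -0.47 and -0.57.

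The N-hydroxypipecolic acid pathway, which makes the mobile signal of systemic acquired resistance, was lower at all 3 of its members outside the range. ALD1, the aminotransferase that starts the pathway, had -4.83, -4.35 and -4.13 in AOpro(mut)-AO shoots, against -1.54, -1.92 and -2.13 in AOpro(wt)-AO shoots. The log2 fold change of ALD1 was -2.57 (adjusted p = 1.2e-06, limma). FMO1, the monooxygenase that forms N-hydroxypipecolic acid, had -4.01, -3.35 and -3.57 in AOpro(mut)-AO, against -0.88, -0.77 and -0.85 in AOpro(wt)-AO, a 7.02-fold decrease (log2 fold change -2.81, adjusted p = 0.000188). UGT76B1, a glucosyltransferase that inactivates N-hydroxypipecolic acid and salicylic acid, had -2.85, -2.8 and -2.08 in AOpro(mut)-AO, against 0.03, -0.85 and -1.37 in AOpro(wt)-AO. Its log2 fold change was -1.85 (adjusted p = 0.000844). The genes for the start of the pathway, its final step and its inactivation were thus lower together, and all 3 were also called with normexp. SARD4, the reductase of the pathway, lay inside the range and gave 0.32 (adjusted p = 0.0483).

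Salicylic acid is the hormone of resistance to biotrophic pathogens, made in the plastid through isochorismate. Of 19 tested genes of its synthesis and signalling, 4 were called lower and 1 higher, 17 had a negative log2 fold change, and the median was -0.71. S3H, which hydroxylates salicylic acid, had 0.45, 0.4 and 0.27 in AOpro(mut)-AO shoots, against 2.7, 2.33 and 2.23 in AOpro(wt)-AO shoots. Its log2 fold change of -2.05 (adjusted p = 3.63e-05, limma) was the largest decrease of the list. EDS5, which exports the salicylic acid precursor from the plastid, had -1.07, -0.91 and -0.72 in AOpro(mut)-AO, against 0.62, 0.38 and 0.31 in AOpro(wt)-AO, a log2 fold change of -1.34 (adjusted p = 1.55e-07). PAD4, a lipase-like immune regulator, gave -1.18 (adjusted p = 1.46e-05). ICS1, the isochorismate synthase, had -1.47, -1.31 and -1.35 in AOpro(mut)-AO, against -0.1, -0.33 and -0.67 in AOpro(wt)-AO, and its log2 fold change of -1.01 (adjusted p = 6.89e-05) lay at the fold threshold. Without AOpro(mut)-AO replicate 1, AOpro(wt)-AO replicate 1 or AOpro(wt)-AO replicate 2, ICS1 gave -0.96, -0.88 and -0.99 and was not called, nor was it with normexp (-0.88). The regulators EDS1, SARD1 and CBP60G and the synthesis gene PBS3 gave -0.9, -0.84, -0.71 and -0.88 without reaching the fold threshold. The receptor gene NPR1 gave -0.28.

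The exception in the salicylic acid list was BSMT1, the methyltransferase that forms methyl salicylate and methyl benzoate. It had -4.93, -6.45 and -6.63 in AOpro(mut)-AO shoots, against -9.39, -7.12 and -9.47 in AOpro(wt)-AO shoots, a fitted log2 fold change of 2.65 (adjusted p = 0.021, limma). Only 1 of the 3 AOpro(wt)-AO arrays was well above background, so the size of the difference is uncertain. The call was lost without AOpro(mut)-AO replicate 1 (2.12, adjusted p = 0.0933), AOpro(wt)-AO replicate 1 (2.29, adjusted p = 0.0775) or AOpro(wt)-AO replicate 3 (2.25, adjusted p = 0.0845), with normexp (1.37, adjusted p = 0.123) and with the authors' value table (0.69, adjusted p = 0.274).

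Genes for pathogenesis-related (PR) proteins and other defence outputs were mostly lower in AOpro(mut)-AO shoots. Of 15 tested, 11 were called lower and none higher, all 15 had a negative log2 fold change, and the median was -1.30. PR1, the marker gene of the salicylic acid response, had 0.41, 0.69 and 0.46 in AOpro(mut)-AO shoots, against 2.83, 2.76 and 3.11 in AOpro(wt)-AO shoots. That is 5.21-fold lower (log2 fold change -2.38, adjusted p = 0.000196, limma). PR5, a thaumatin-like protein, had 3.13, 2.93 and 2.74 in AOpro(mut)-AO, against 4.71, 4.58 and 4.66 in AOpro(wt)-AO (log2 fold change -1.71). PR2, a beta-1,3-glucanase, had 3.06, 2.82 and 2.67 in AOpro(mut)-AO, against 4.57, 4.3 and 4.35 in AOpro(wt)-AO (log2 fold change -1.56). No array of one line reached the arrays of the other for these 3 genes. AIG1, a gene induced by avirulent bacteria, gave -2.33, and the cysteine-rich membrane proteins PCR1 and PCR2 gave -2.30 and -2.21. A second probe of PCR2 gave -0.02. The camalexin genes CYP71A13 and PAD3 gave -1.68 and -1.30, while CYP71A12 gave -0.11 (adjusted p = 0.773). PDF1.2, a defensin of the jasmonate and ethylene response, gave -0.02 (adjusted p = 0.991). With normexp, 10 members of the list were called lower and none higher.

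WRKY transcription factors of immunity were lower in 7 of 18 tested cases and called higher in none, with a median of -0.61. WRKY38, which acts in salicylic acid responses, had -0.85, -1.04 and -0.88 in AOpro(mut)-AO shoots, against 0.98, 0.53 and 0.23 in AOpro(wt)-AO shoots. Its log2 fold change was -1.5 (adjusted p = 7.59e-05, limma). WRKY50 gave -1.56 (adjusted p = 1.55e-05), with -2.05, -2.57 and -2.42 in AOpro(mut)-AO against -0.52, -0.89 and -0.97 in AOpro(wt)-AO. WRKY62, WRKY30, WRKY51 and WRKY55 gave -1.66, -1.46, -1.15 and -1.12. WRKY59 was not well above background on any AOpro(mut)-AO array and was at least 2.56-fold lower there, and with normexp it gave 0.23. The broadly acting WRKY70, WRKY53, WRKY33 and WRKY40 gave -0.32, -0.35, -0.33 and -0.39 and were not called. With normexp, WRKY50 and WRKY38 were the 2 members still called.

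Cysteine-rich receptor-like kinases (CRKs), a large family of plasma membrane kinases with extracellular cysteine motifs, included 24 tested members of the fixed list. Of these, 8 were called lower, none was called higher, all 24 had a negative log2 fold change, and the median was -0.82. CRK23 had -3.99, -4.03 and -4.23 in AOpro(mut)-AO shoots, against -1.4, -1.74 and -1.85 in AOpro(wt)-AO shoots, a log2 fold change of -2.42 (adjusted p = 1.1e-08, limma). CRK12 had -4.43, -4.52 and -4.42 in AOpro(mut)-AO, against -2.14, -2.41 and -2.41 in AOpro(wt)-AO, a log2 fold change of -2.14 (adjusted p = 4.23e-09). CRK37, CRK7, CRK4, CRK36 and CRK20 gave -2.14, -1.5, -1.49, -1.24 and -1.1. CRK38 was above background on no AOpro(mut)-AO array and was at least 7.24-fold lower there, with a normexp value of -0.35. CRK30, outside the fixed list, gave -2.75 with -6.7, -6.79 and -5.73 in AOpro(mut)-AO against -3.75, -3.79 and -3.42 in AOpro(wt)-AO, and with normexp -0.80. CRK23, CRK12, CRK7 and CRK4 were called with both background corrections. Many CRK genes stand in tandem arrays of similar sequence, and cross-hybridization of their probes was not checked here.

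**Figure D2:**
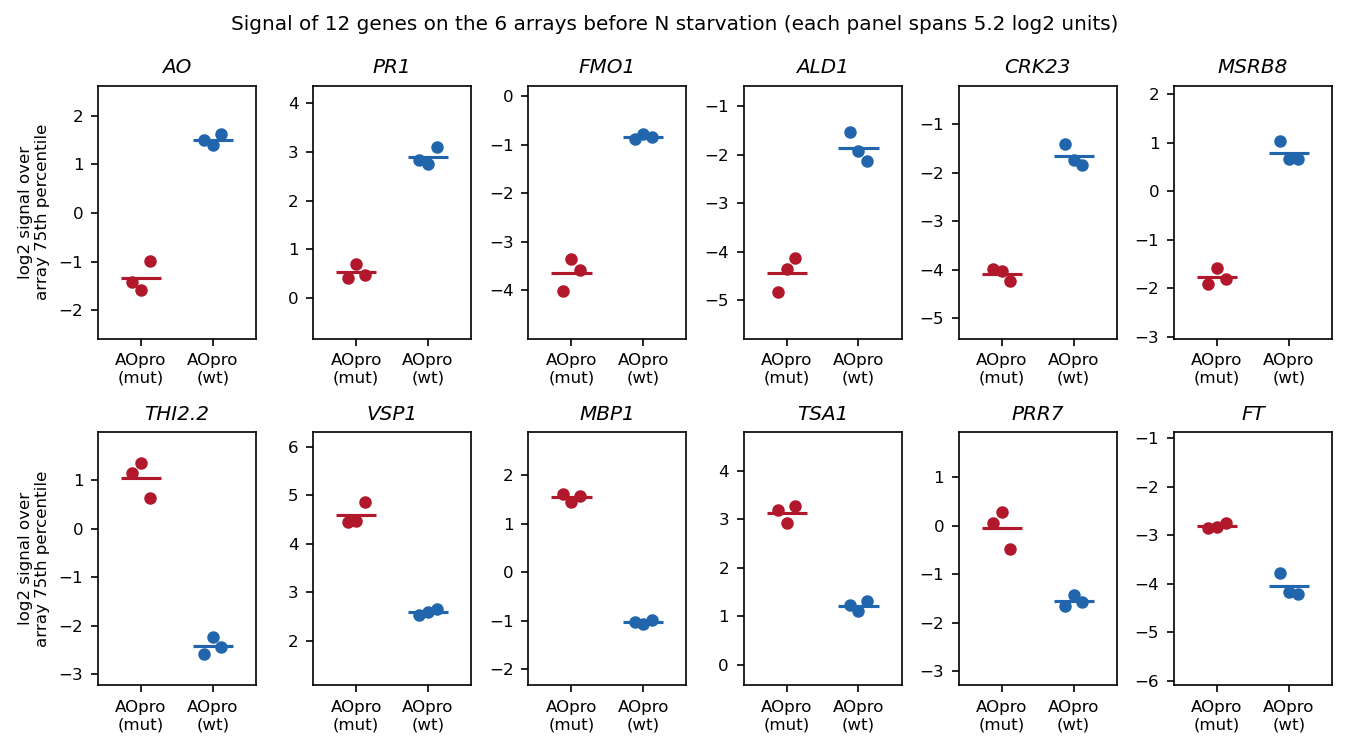
Normalized log2 signal (y axis, 0 is the 75th percentile of the array) of 12 genes on the 3 AOpro(mut)-AO arrays (red, left in each panel) and the 3 AOpro(wt)-AO arrays (blue, right), with lines at the means. The arrays of the lines did not overlap for any of the 12, which were lower in AOpro(mut)-AO in the upper row and higher in the lower row.

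Jasmonate is the hormone of wound and herbivore responses, and its genes went mostly the other way. Of 23 tested, 9 were called higher and 1 lower, 22 had a positive log2 fold change, and the median was 0.49. THI2.2, a thionin, had 1.14, 1.35 and 0.64 in AOpro(mut)-AO shoots, against -2.59, -2.24 and -2.44 in AOpro(wt)-AO shoots. It was 11.0-fold higher (log2 fold change 3.46, adjusted p = 6.66e-09, limma). VSP1, a vegetative storage protein induced by jasmonate, had 4.45, 4.46 and 4.85 in AOpro(mut)-AO, against 2.53, 2.6 and 2.66 in AOpro(wt)-AO (log2 fold change 1.99, adjusted p = 1.56e-07), and its neighbour VSP2 gave 1.82. The 3 other tested probes of VSP1 gave larger differences of 2.98, 3.07 and 2.97. Both VSP genes are similar in sequence, and cross-hybridization between them was not checked. Among synthesis genes, the allene oxide cyclase gene AOC1 had 1.5, 1.31 and 1.98 in AOpro(mut)-AO, against -0.48, -0.29 and 0.04 in AOpro(wt)-AO, a log2 fold change of 1.84 (adjusted p = 8.25e-07). The earlier enzymes LOX2 and AOS gave 0.29 each and were not called. Of the JAZ repressors, which jasmonate both destroys and induces, JAZ7, JAZ8 and JAZ5 were called at 1.94, 1.23 and 1.04. CORI3, a cystine lyase, gave 1.27 and the thionin THI2.1 gave 1.4. TAT3, a tyrosine aminotransferase that jasmonate induces, was the member called lower. It had 0.64, 0.34 and 1.18 in AOpro(mut)-AO, against 2.82, 2.41 and 2.43 in AOpro(wt)-AO (log2 fold change -1.84, adjusted p = 5.99e-05). With normexp 7 members were called higher and 1 lower.

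ER bodies are compartments that hold beta-glucosidases, and with the myrosinases they release toxic products from glucosinolates when tissue is damaged. Of 13 tested genes of this system, 4 were called higher and none lower, all 4 also with normexp, and the median was 0.08. MBP1, a myrosinase-binding protein, had 1.61, 1.44 and 1.57 in AOpro(mut)-AO shoots, against -1.03, -1.06 and -0.98 in AOpro(wt)-AO shoots (log2 fold change 2.56, standard error 0.10, adjusted p = 4.8e-10, limma). MBP2, its neighbour by locus number, had 2.27, 2.25 and 2.57 in AOpro(mut)-AO, against 0.11, 0.11 and 0.39 in AOpro(wt)-AO (log2 fold change 2.16). TSA1, a component of ER bodies, had 3.18, 2.92 and 3.27 in AOpro(mut)-AO, against 1.24, 1.1 and 1.31 in AOpro(wt)-AO (log2 fold change 1.91). BGLU18, the beta-glucosidase of wound-induced ER bodies, had 6.19, 6.0 and 6.45 in AOpro(mut)-AO, against 4.75, 4.53 and 4.88 in AOpro(wt)-AO (log2 fold change 1.49). The replicate arrays of these 4 genes lay within 0.5 of each other, and the lines did not overlap. TSA1 and BGLU18 are neighbours by locus number too. All 4 calls of the list lie in 1 stretch of chromosome 1, from AT1G52030 (MBP2) to AT1G52410 (TSA1). In and beside it AT1G52000 and AT1G52390 were also called higher, at 1.82 and 1.3, the latter not with normexp (1.07, adjusted p = 0.175, limma). A shared origin of these increases was not tested. The myrosinases TGG1 and TGG2 gave 0.08 and 0.42, and PYK10, the beta-glucosidase of root ER bodies, gave -0.48 (adjusted p = 0.141). Of 21 genes of glucosinolate synthesis outside the range none was called, and their median was 0.15.

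The other large increases covered carbohydrate, terpenoid and storage functions. CSLA01, of the cellulose synthase-like A family that makes mannans, had -1.11, -1.96 and -0.05 in AOpro(mut)-AO shoots, against -5.23, -5.62 and -3.95 in AOpro(wt)-AO shoots. It was 14.9-fold higher (log2 fold change 3.90, adjusted p = 0.000164, limma). BAM5, a beta-amylase, gave 2.13, with -0.07, -0.41 and 0.43 in AOpro(mut)-AO against -2.23, -2.54 and -1.66 in AOpro(wt)-AO. In terpenoid synthesis, DXPS1, annotated as a 1-deoxy-D-xylulose-5-phosphate synthase, gave 2.43 (adjusted p = 0.00379). CYP82G1, which forms a volatile homoterpene, gave 1.98 (adjusted p = 0.0219), and its call was lost without AOpro(mut)-AO replicate 1 (1.64, adjusted p = 0.0905), AOpro(wt)-AO replicate 2 (2.03, adjusted p = 0.0501) or AOpro(wt)-AO replicate 3 (1.85, adjusted p = 0.0688), and with the slide as a block (1.93, adjusted p = 0.0688). TPS03, an ocimene synthase, was above background on no AOpro(wt)-AO array and was at least 5.07-fold higher in AOpro(mut)-AO shoots. AT1G32190 and LOG3 had larger fitted increases than CSLA01, of 5.66 and 4.11, and were also called with normexp (3.02 and 1.8). Each was above background on 1 of 3 AOpro(wt)-AO arrays, so the size of these differences is uncertain. Further genes among the 15 largest increases with signal above background on all 6 arrays were AT3G09450 (3.05), AT5G16980 (2.95), AT4G32510 (2.86), AT4G17470 (2.17), AT1G62690 (2.07) and AT3G28220 (2.00). AT5G16980 is annotated as an NADP-dependent oxidoreductase, AT4G32510 as an anion exchanger, AT4G17470 as a palmitoyl protein thioesterase and AT3G28220 as a MATH domain protein. CSLA01 and AT4G32510 kept differences of similar size at the later stages, with 3.92 and 3.26 after 3 d of N starvation and 3.58 and 2.83 after nitrate resupply.

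Some clock and flowering genes were among the increases. Of 19 tested clock genes outside the range, 4 were called higher and none lower, with a median of 0.26. A positive log2 fold change was found for 11 of them and a negative one for 8. The values ran from -2.02, which was not called and was the largest change in size, to 1.51. PRR7, a pseudo-response regulator that represses morning genes, had 0.05, 0.29 and -0.47 in AOpro(mut)-AO shoots, against -1.65, -1.42 and -1.58 in AOpro(wt)-AO shoots (log2 fold change 1.51, adjusted p = 1.64e-05, limma). PRR9 and PRR5 of the same family gave 1.32 and 1.09, and GI, an evening-phased protein that links the clock to flowering, gave 1.19. Without AOpro(mut)-AO replicate 2, GI gave 0.98 and PRR5 gave 0.91, and neither was called. PRR9 was well above background on 1 of 3 AOpro(wt)-AO arrays and was not called with normexp (1.03, adjusted p = 0.152). The morning genes CCA1 and LHY gave 0.38 and -0.24, with arrays that overlapped between the lines. Plants grew in continuous light, and harvest times of the 2 lines are not given in the sources used here.

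Of 17 tested flowering genes outside the range, 3 were called higher and none lower, with a median of 0.38. FT, the mobile florigen, had -2.86, -2.83 and -2.75 in AOpro(mut)-AO shoots, against -3.77, -4.17 and -4.22 in AOpro(wt)-AO shoots (log2 fold change 1.24, adjusted p = 7.77e-06, limma). AP1, a floral meristem identity factor, had -3.31, -3.1 and -3.56 in AOpro(mut)-AO, against -4.92, -5.01 and -5.26 in AOpro(wt)-AO (log2 fold change 1.74, adjusted p = 2.64e-05). LFY, another meristem identity factor, whose locus AT5G61850 lies shortly after the range, gave 1.1 and was not called with normexp (1.03, adjusted p = 0.201) or without AOpro(mut)-AO replicate 1 (0.96). FLC, the floral repressor, gave -1.01 (adjusted p = 0.109) and was not called. Of 6 floral organ identity genes used as flower markers, AP3, SEP2, PI, SEP3 and SEP1 were called higher and AG lower. PI had -2.86, -2.66 and -2.88 in AOpro(mut)-AO, against -4.39, -4.41 and -4.64 in AOpro(wt)-AO (log2 fold change 1.68). AP3 was at least 4.17-fold and SEP2 at least 2.65-fold higher, since neither was above background in AOpro(wt)-AO shoots. AP3, SEP2 and SEP3 were not called with normexp. AG was at least 2.00-fold lower and had the opposite sign with normexp (0.50). The summed level of the flower markers was 0.275 to 0.338 in AOpro(mut)-AO and 0.108 to 0.13 in AOpro(wt)-AO shoots, which did not overlap. In bulk shoots, a different number of cells of a type and a different amount of RNA per cell cannot be told apart. GA20OX3, a gibberellin 20-oxidase, and AGO9, an Argonaute protein, were at least 4.54-fold and 3.62-fold higher, both against AOpro(wt)-AO arrays below background.

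Of 9 seed markers tested outside the range, the 12S cruciferin genes CRC, CRA1 and CRB were called higher and none lower, with a median of 0.94. CRA1 had -2.13, -2.52 and -3.51 in AOpro(mut)-AO shoots, against -3.83, -5.09 and -6.77 in AOpro(wt)-AO shoots (log2 fold change 2.51, adjusted p = 0.0114, limma). Without AOpro(wt)-AO replicate 3 its log2 fold change was 1.74 (adjusted p = 0.0616), and it was not called. Other probes of CRA1 gave 1.78 and 2.36. CRC and CRB gave 3.81 and 2.43, each with 2 of 3 AOpro(wt)-AO arrays above background, and CRB was not called with normexp (1.26, adjusted p = 0.169). Over 13 seed markers the summed level was 1.37 to 2.25 in AOpro(mut)-AO and 0.354 to 1.98 in AOpro(wt)-AO shoots, which overlapped, and SESA1 and SESA2 were above background on no array. At the later stages CRC gave 0.06 and 0.03 and CRB gave -0.03 and 0.38. The change of the CRC difference passed the interaction test at both stages (-3.75, adjusted p = 0.0207, and -3.78, adjusted p = 0.0219, limma). CRC was picked on its values before N starvation, which also enter this change, so a smaller difference later can come from the choice. The part of seed-derived RNA in these values was not tested.

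Genes of photosynthesis and primary carbon metabolism outside the range differed by less than 2-fold. Of the 20 light-harvesting antenna genes, 23 photosystem subunits, 18 chlorophyll synthesis genes, 16 Calvin cycle genes and 21 tricarboxylic acid cycle genes tested outside the range, none was called. Their median log2 fold changes were 0.23, 0.03, 0.02, -0.13 and -0.23 in that order. The antenna genes LHCB2.1 and LHCB1.5 came nearest to a call, at 0.93 (adjusted p = 0.00111) and 0.79 (adjusted p = 1.98e-06). Of the 20 antenna genes, 15 had a positive log2 fold change. Arrays did not overlap for 12 that were higher and 2 that were lower, beside 23.1% and 28.8% of all genes outside the range. In the tricarboxylic acid cycle 19 of 21 members had a negative log2 fold change, and all lay between -0.41 and 0.07. Of these 21, 16 were lower with arrays that did not overlap. Among genes of alternative respiration, UPOX, a mitochondrial protein induced by oxidative stress, had 0.13, 0.14 and 0.25 in AOpro(mut)-AO shoots, against -1.47, -1.28 and -1.32 in AOpro(wt)-AO shoots. Its log2 fold change was 1.53 (adjusted p = 1.67e-09, limma). NDB3, an external NADH dehydrogenase, was at least 1.79-fold higher and was not called with normexp (1.04, adjusted p = 0.223), and the median of the 13 tested members was -0.17. P5CS1, which starts proline synthesis, gave 1.14 (adjusted p = 4.36e-06) with 1.77 at another probe, and was the 1 call among 22 genes of arginine, polyamine and proline metabolism.

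Of 25 nitrate and N assimilation genes tested outside the range 1 was called higher and 1 lower, beside 1.68% and 2.26% of all genes there, and their median was -0.07. Of 17 regulators and early targets of the nitrate response none was called, and their median was -0.06. The nitrate reductase genes NIA1 and NIA2 gave 0.50 and -0.20, the nitrite reductase gene NIR1 -0.54 and the nitrate transceptor gene NRT1.1 -0.56, all short of the fold threshold. NLP6 and NLP7, of the NLP family, gave -0.26 and -0.07. ASN1, the dark- and starvation-induced asparagine synthetase, was higher, with -3.33, -2.77 and -3.73 in AOpro(mut)-AO against -4.3, -4.46 and -4.82 in AOpro(wt)-AO (log2 fold change 1.25, adjusted p = 0.0111, limma). Without AOpro(mut)-AO replicate 2 it gave 1.0 (adjusted p = 0.0592). The high-affinity transporter gene NRT2.1 was above background on no AOpro(mut)-AO array and was at least 1.7-fold lower there. Its sign turned with normexp (0.35), and its call was lost without replicate 1 of AOpro(mut)-AO (adjusted p = 0.0563) or of AOpro(wt)-AO (adjusted p = 0.0735), and with the slide as a block (adjusted p = 0.0637).

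Senescence, mineral nutrient and stress lists gave scattered calls. Of 22 senescence genes, SEN1, a dark-induced gene, gave 1.56 and NAC6, a senescence regulator, 1.13, while FRK1, NAC042 and YLS9 gave -1.43, -1.17 and -1.21 and were not called with normexp. The call of YLS9 (adjusted p = 0.0425) was lost with each of the 6 arrays left out and with the replicate block (adjusted p = 0.0613). Among 17 iron genes outside the range, F6H1, which makes coumarins, gave -2.37 (adjusted p = 0.000908, limma) and was not called with normexp. The iron-deficiency regulators bHLH39 and bHLH101 were called at -3.11 and -1.71 with arrays that overlapped between the lines. bHLH39 had -6.79, -8.75 and -3.59 in AOpro(mut)-AO, against -1.98, -3.39 and -4.45 in AOpro(wt)-AO, and within the slide of both replicates 3 the signs turned, to 0.86 for bHLH39 and 0.46 for bHLH101. bHLH39 was above background on 2 of 3 AOpro(mut)-AO arrays. Both calls were lost without replicate 1 or 2 of either line, with normexp and with the slide as a block. In the other direction, the ferric reductase gene FRO2, counted here among the root markers, was called higher at 1.48 (adjusted p = 7.24e-07, limma). The arrays of the lines did not overlap for FRO2, and it was also called with normexp (1.33). MSRB8, a methionine sulfoxide reductase that sulfur deficiency induces, had -1.9, -1.58 and -1.8 in AOpro(mut)-AO, against 1.04, 0.67 and 0.66 in AOpro(wt)-AO (log2 fold change -2.55, adjusted p = 1.16e-07). It was the 1 call among 13 genes of sulfur deficiency and sulfate assimilation, whose median was -0.42. BIP3, an ER chaperone that ER stress induces, gave -1.78 (adjusted p = 2.65e-05), and all 12 tested chaperone and ER stress genes outside the range had negative values with a median of -0.53. The cold and drought genes CBF2 and COR15B gave 1.72 and 1.1, of 15 tested with a median of 0.49, and COR15B fell below the fold threshold without AOpro(wt)-AO replicate 1 (0.96) or AOpro(mut)-AO replicate 2 (0.97). MYBL2, a repressor of anthocyanin synthesis, gave 1.25 and GL3, a bHLH activator, 1.08, among 22 anthocyanin and flavonoid genes with a median of -0.48. Without AOpro(mut)-AO replicate 3, GL3 gave 0.95 and was not called. None of 17 phosphate starvation genes, 18 cytokinin genes and 18 cell expansion and growth genes outside the range was called. These lists do not hold all genes of such functions. LOG3 and XTH19, which are not in them, were called higher at 4.11 and 1.51, XTH19 not with normexp (1.17).

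**Figure D3:**
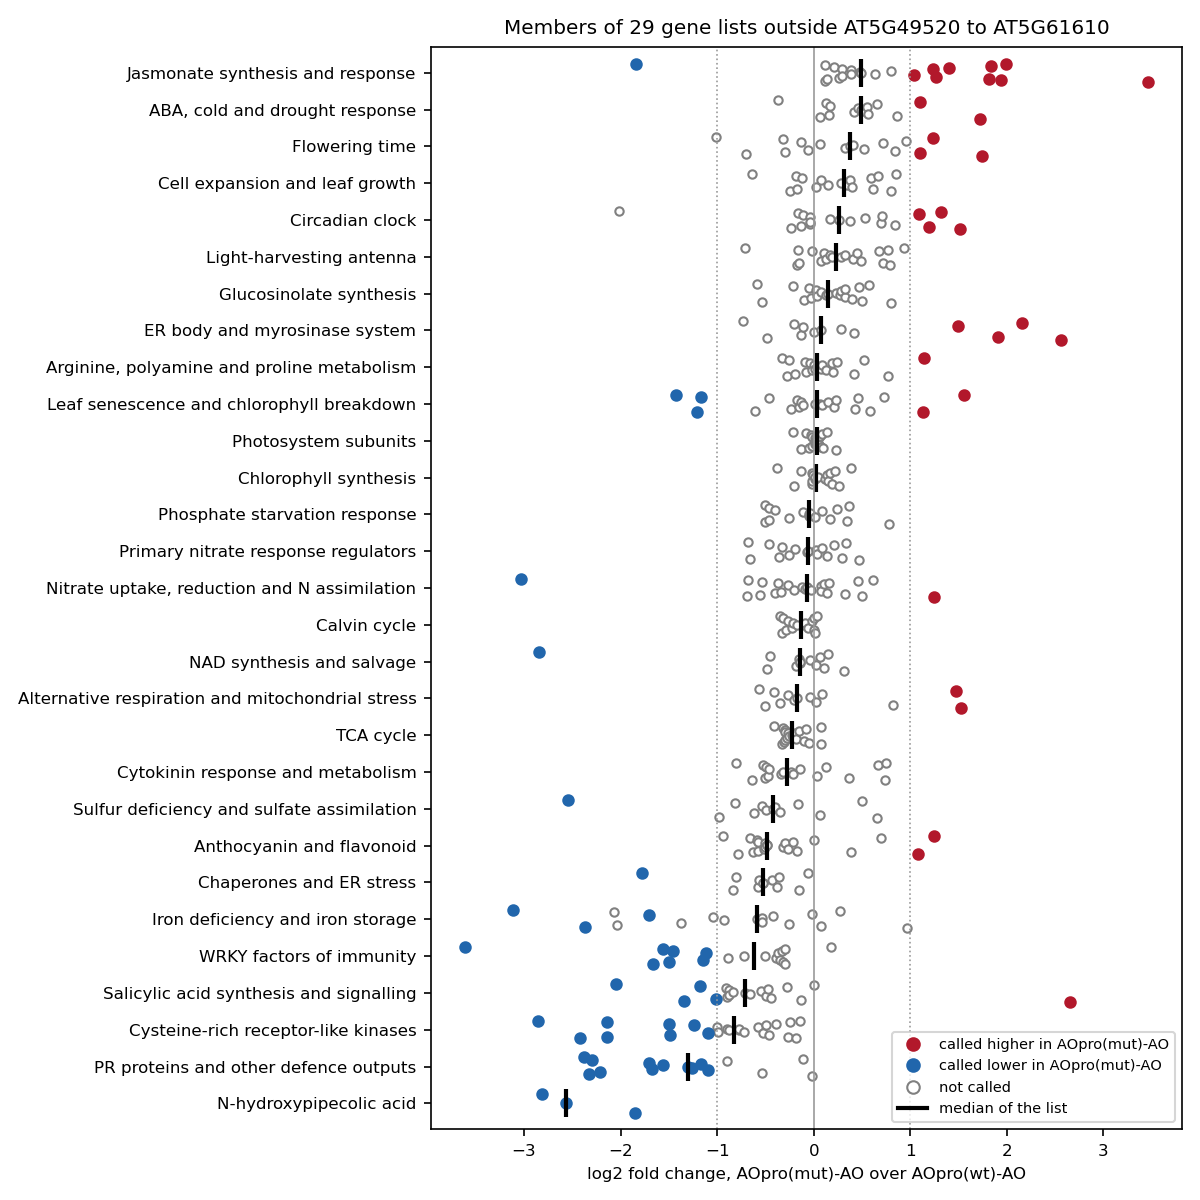
Log2 fold change of AOpro(mut)-AO over AOpro(wt)-AO (x axis) for the tested members of 29 gene lists outside the range (y axis, ordered by median), with red points called higher, blue points called lower, open points not called, black bars at the list medians and dotted lines at the 2-fold limits. The N-hydroxypipecolic acid, PR protein, CRK, salicylic acid and WRKY lists had the 5 lowest medians (-2.57 to -0.61), and the jasmonate list had 9 genes called higher.

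The dimmest decreases were bounds. Among genes called lower and above background on no AOpro(mut)-AO array, 42 in number, the 5 largest bounds were those of CRK38 and of AT1G59030, AT2G44390, AGP3 and PP2-A7, at least 4.45-, 4.26-, 4.12- and 4.02-fold. AGP3 encodes an arabinogalactan protein and PP2-A7 a phloem protein 2-like lectin. With normexp the last 4 gave 0.00, 0.05, 0.16 and 0.09. Of the genes called higher, 53 were above background on no AOpro(wt)-AO array. All 5 of the largest bounds among these, of TPS03, GA20OX3, AP3, AGO9 and AT5G22430, kept their sign with normexp, with 1.16 to 1.64, and TPS03 was the 1 of them still called.

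The genes called before N starvation were set against the same lines on the 12 arrays taken after 3 d of N starvation and after the following nitrate resupply, which share no array with the first comparison. The fits of all stages used a common estimate of each probe's spread, and probes were filtered on the arrays of the first comparison. Calls at different stages are therefore not independent. Of the 331 genes called higher outside the range, 156 (47.1%) were called higher after 3 d of N starvation, where 1.97% of all genes outside the range were, and 185 (55.9%) after resupply, where 2.33% were. The median log2 fold change of the 331 was 0.99 and 1.09 at these stages, and 119 genes were called higher at both. Of the 445 genes called lower, 323 (72.6%) were called lower after 3 d of N starvation, against 3.16% of all genes outside the range, and 256 (57.5%) after resupply, against 2.43%. Their median was -1.44 and -1.12, and 233 were called lower at both stages. AO gave -2.38 and -2.12.

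At the later stages the defence lists again had many members called lower. The PR protein list had 12 of 15 called lower after 3 d of N starvation and 9 after resupply, the WRKY list 9 and 6 of 18, and the CRK list 12 and 15 of 24. PR1 gave -2.98 after 3 d of N starvation and -2.68 after resupply, and CRK23 gave -2.85 and -2.69. PCR1 gave -2.64 and -3.09, and WRKY38 gave -2.04 and -2.54. For none of these 4 genes did the change of the difference between stages pass the limma interaction test (adjusted p of 0.0596 to 0.797). By resupply the differences of WRKY59, WRKY30, CRK37 and CRK38 did change, by 4.19, 0.85, 0.95 and 1.22 (adjusted p = 0.00636, 0.00896, 0.0186 and 0.0319, limma). After resupply these genes gave 0.58, -0.61, -1.19 and -1.64. The changes of WRKY62, WRKY50, CRK7 and CRK12 by resupply did not pass (adjusted p of 0.0975 to 0.808, limma). In the N-hydroxypipecolic acid pathway, ALD1 gave -2.04 and then -1.11, and UGT76B1 gave -1.73 and then 0.24. The differences of both genes changed between the first stage and resupply, by 1.46 for ALD1 (adjusted p = 0.027) and by 2.09 for UGT76B1 (adjusted p = 0.0275, limma). FMO1 gave -1.80 and -1.11, and its change of 1.7 did not pass (adjusted p = 0.124). The genes named here were picked on their values before N starvation, which also enter each change. A smaller difference later can come from this choice alone.

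Several increases were smaller at the later stages, in genes that were picked on their values before N starvation. The jasmonate list had 3 genes called higher and 1 lower after 3 d of N starvation, and 4 and 1 after resupply. AOC1 gave 0.72 and 0.68, a change of -1.11 (adjusted p = 0.0166, limma) and of -1.16 (adjusted p = 0.0162). THI2.2 gave 3.08 and then 2.13, a change of -1.33 by resupply (adjusted p = 0.0193). MBP1 gave 1.1 and 1.47, with changes of -1.46 (adjusted p = 0.00012) and -1.09 (adjusted p = 0.00221). The clock gene GI gave -0.04 and -0.08, with changes of -1.23 (adjusted p = 0.0237) and -1.27 (adjusted p = 0.0235), whereas the changes of PRR5 did not pass (adjusted p = 0.149 and 0.0594). SEN1 gave 0.43 and 0.32, with changes of -1.13 (adjusted p = 0.0497) and -1.23 (adjusted p = 0.0411). ASN1 gave -0.28 and 0.13, and its changes did not pass (adjusted p = 0.0715 and 0.188).

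**Figure D4:**
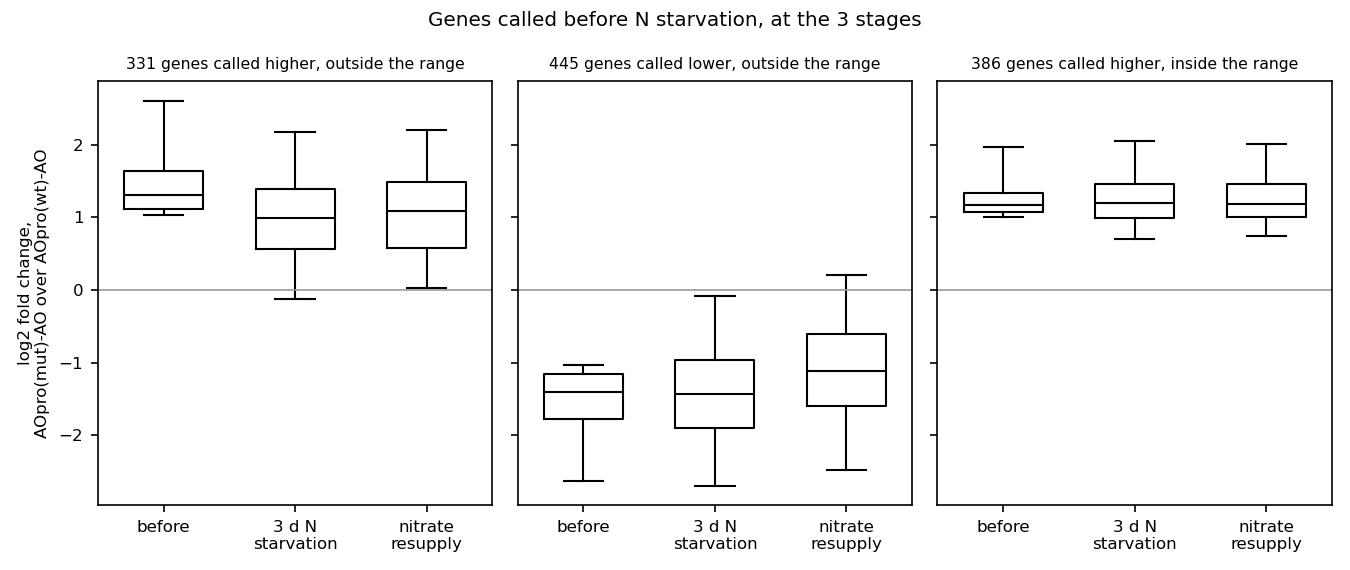
Log2 fold change of AOpro(mut)-AO over AOpro(wt)-AO (y axis) before N starvation, after 3 d of N starvation and after nitrate resupply (x axis) for the genes called before N starvation, as boxes from the 25th to the 75th percentile with the median as a line and whiskers to the 5th and 95th percentiles. The genes were chosen at the first stage, so only the later 2 boxes of each panel are from other arrays. Medians there were 0.99 and 1.09, -1.44 and -1.12, and 1.2 and 1.18.

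Inside the range from AT5G49520 to AT5G61610 most genes were higher in AOpro(mut)-AO shoots by a similar amount. This stretch was found in the same contrast, so its values are a description without a test. Of 1014 tested genes, which were 4.91% of all genes tested, 386 (38.1%) were called higher and 2 (0.197%) lower in AOpro(mut)-AO shoots. The 386 genes made up 53.8% of the 717 genes called higher anywhere. The median log2 fold change was 0.93, which is 1.9-fold, and the quartiles were 0.76 and 1.11, against -0.18 and 0.14 outside the range. A value between 0.5 and 1.5 was found for 84.1% of the genes inside and 5.83% of those outside. Only 34 of the 1014 genes were at or below 0. The arrays of the lines did not overlap for 92.8% of the genes.

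The step was even along the range and had sharp ends. In 10 parts of about equal gene number the medians lay between 0.89 and 0.97. The 10 tested genes just before the start, AT5G49390 to AT5G49510, had a median of 0.08, and the first 10 inside had 0.90. The last 10 inside had 0.92, and the 10 just after the end, AT5G61640 to AT5G61790, had -0.06. In 3 classes of signal strength with 338 genes each, the medians were 1.01 for the dimmest, 0.96 for the middle and 0.88 for the brightest genes. With normexp the median inside was 0.91 and outside 0.06. The medians inside were 0.93 after 3 d of N starvation and 0.95 after resupply, with -0.02 and -0.01 outside, and 72.5% and 75.6% of the 386 genes were called higher again, where 39.8% and 41.2% of all genes in the range were. DNA was not measured on these arrays, and the origin of the step was not tested.

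**Figure D5:**
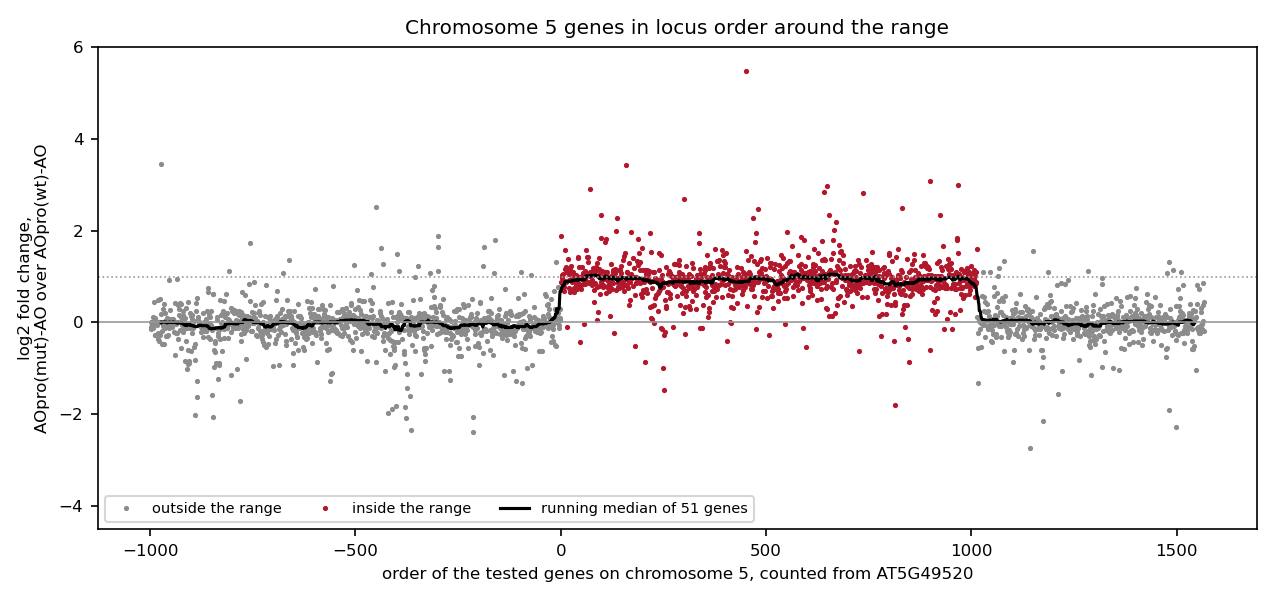
Log2 fold change of AOpro(mut)-AO over AOpro(wt)-AO (y axis) of tested chromosome 5 genes in locus order (x axis, number of genes from AT5G49520), with genes inside the range in red, the others in grey and a running median of 51 genes as a black line. The running median steps up at the start of the range to a plateau near its median of 0.93 and returns to 0 at its end.

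List members inside the range are given beside its median of 0.93. In the NAD pathway, QS had 1.39, 1.25 and 1.44 in AOpro(mut)-AO shoots, against 0.61, 0.51 and 0.46 in AOpro(wt)-AO shoots. Its log2 fold change was 0.84 (adjusted p = 1.43e-06, limma), which fell short of the fold threshold. NMNAT, which joins the nucleotide to adenylate, had -1.04, -1.06 and -1.29 in AOpro(mut)-AO, against -2.32, -2.35 and -2.33 in AOpro(wt)-AO (log2 fold change 1.2). In N metabolism, GLT1, the NADH-dependent glutamate synthase, gave 1.29 and NRT2.3 gave 1.22. Among photosynthesis genes, the antenna protein gene LHCB3 had 6.85, 6.9 and 6.94 in AOpro(mut)-AO, against 5.47, 5.5 and 5.73 in AOpro(wt)-AO (log2 fold change 1.33), and PORA, a protochlorophyllide oxidoreductase, gave 1.59. Other probes gave larger differences, at 1.64, 1.85 and 2.1 for LHCB3 and at 4.02 and 4.13 for PORA. The clock genes TOC1, PRR3, ZTL, RVE6 and BOA gave 1.13, 1.46, 0.88, 0.89 and 0.59. AGL8, a flowering MADS factor, gave 1.17, MYB34 and MYB28 of glucosinolate synthesis 1.18 and 0.71, and the ferric reductase genes FRO7 and FRO6 1.06 and 0.92.

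Some genes in the range stood above the step. AT5G55150 had the highest fitted value, and as it was above background on no AOpro(wt)-AO array it was at least 17.4-fold higher in AOpro(mut)-AO shoots. Among genes above background on all 6 arrays, AT5G51530, annotated as related to ubiquitin hydrolases, had the largest increase, with -2.28, -2.24 and -2.18 in AOpro(mut)-AO shoots, against -5.5, -5.76 and -5.73 in AOpro(wt)-AO shoots, a log2 fold change of 3.43 (adjusted p = 1.72e-10, limma). AT5G60260 gave 3.09, AT5G57510 2.97, AT5G50360 2.91, RTFL5, a ROTUNDIFOLIA-like small peptide gene, 2.49, and AT5G50760, also named SAUR55, 2.35. AT5G57510 and AT5G50760 gave only 0.28 and 0.50 after 3 d of N starvation, while AT5G51530 and AT5G60260 gave 2.96 and 2.80. Among list members, the wall-modifying TCH4 gave 2.33, OLEO3, an oleosin, 2.00, EXPA14, an expansin, 1.98, GRF7 1.94, WRKY48 1.89 and RD29A, a cold and drought gene, 1.54. Other members stayed below the step, such as YSL3 at 0.30, SARD4 at 0.32, RD29B at 0.34 (adjusted p = 0.394), UF3GT at 0.23 and HSP90.1 at -0.15 (adjusted p = 0.483). The 2 genes called lower were LTP4, a lipid transfer protein, and AT5G52730. LTP4 had -1.74, -2.53 and -2.36 in AOpro(mut)-AO, against -1.15, 0.8 and -0.87 in AOpro(wt)-AO (log2 fold change -1.80, adjusted p = 0.02). Its call was lost without AOpro(wt)-AO replicate 2 (-1.2, adjusted p = 0.106), AOpro(mut)-AO replicate 2 (adjusted p = 0.0703) or AOpro(mut)-AO replicate 3 (adjusted p = 0.0517). AT5G52730 was above background on no AOpro(mut)-AO array, at least 2.21-fold lower, and had the opposite sign with normexp (0.49).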

How the data were processed

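Shoot RNA of the 2 lines had been labelled with Cy3 and hybridized by the authors to Agilent Arabidopsis arrays, 1 sample per array. The deposited scanner files hold spot intensity on a linear scale, as the authors' Feature Extraction software gave it, namely a background-corrected processed signal, median raw signals, median backgrounds and spot flags. The submitters' processing notes and the headers name version 12.1.1.1 of Agilent Feature Extraction, and the study's methods name another version. The authors also deposited a table of normalized signal, processed signal over about the 75th percentile of its array, which served as an alternative. How it was normalized is not given in the sources used here.

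Of 45220 spots 1417 were controls, and 43603 probes were distinct. Spots marked as non-uniform or population outliers were left out (5 to 91 on the AOpro(mut)-AO arrays, 4 to 7 on the AOpro(wt)-AO arrays), and repeated spots were averaged. The log2 processed signal minus the array's 75th percentile over non-control probes was used. RefSeq (assembly TAIR10.1, for names and order only) gave a gene to 36163 probes (82.9%). Tests ran on 28901 probes well above background on all 3 arrays of at least 1 line. limma 3.58.1 in R 4.3.3 fitted means of 6 groups over all 18 arrays, with p-values adjusted by Benjamini-Hochberg over all probes tested. A gene took the value of its tested probe with the highest mean signal. Where a called gene was above background on no array of one line, "at least" folds took as the dim line's level on each array its own signal or the weakest signal seen above background there, whichever was larger, and averaged these before dividing. Normexp was run on median signals with an offset of 50. On simulated data for this comparison (28711 probes) the fit recovered 97 of 100 probes changed by 1.5 on the log2 scale and 100 of 100 changed by 3, with 0 others called. The simulated noise was normal and independent between arrays. It held no slide effects, background errors of dim probes or shared step, so it does not check calls against these.

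The genes named were AO, the 15 largest changes in each direction outside the range among genes called, above background on all 6 arrays and not overlapping, the 5 largest bounds in each direction, up to 5 called members of each list with its best known members, all NAD genes and, inside the range, the 6 largest increases among genes above background on all 6 arrays, the decreases and list members. Further list members, AT5G55150, AT1G52000, AT1G52390, AT1G32190, LOG3 and XTH19 were chosen after their values were seen. The members, range and lists were chosen with earlier results of these data known, so they are no independent support. Labels do not say that replicates came from separate cultures, and p-values measure the spread between pooled samples. Only 3 arrays a line limit the precision, and the median SD between replicates was 0.0883 in AOpro(mut)-AO and 0.0686 in AOpro(wt)-AO. Replicate numbers are shared in the labels, and deviations of same-numbered arrays correlated at 0.17, 0.11 and 0.24, so that a fit with the number as a block was an alternative. Other alternatives were other normalizations and filters, the slide as a block, other probes, other thresholds and each array left out.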

Additional observations from a re-analysis of the deposited data

Results flagged for a closer look

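For 6 genes called before N starvation the line difference was called in the opposite direction at a later stage, and the change of the difference passed the limma interaction test. They were picked after their values were seen, and no explanation was tested. With normexp, only AT3G55646 kept its call before N starvation (-1.26). AT4G01390, AT4G14060 and LTP4 gave 1.17, -0.28 and -1.48 and were not called, and the sign turned for LAC8 (0.63) and AT5G23830 (0.04). LAC8 was above background on 1 of 3 AOpro(mut)-AO arrays. AT5G23830 lost its call with the replicate block (adjusted p = 0.0596, limma). AT3G55646 differed by -1.59 before N starvation and by 1.18 after 3 d of it, a change of 2.77 (adjusted p = 8.22e-05). AT4G01390, a MATH domain protein gene, differed by 1.43 and then by -1.59 after 3 d of N starvation, a change of -3.02 (adjusted p = 0.008). The laccase gene LAC8 differed by -1.15 and then by 1.03 after 3 d of N starvation, a change of 2.18 (adjusted p = 0.0147). After nitrate resupply, AT4G14060, annotated as related to major latex proteins, differed by 1.15, against -1.48 before N starvation, a change of 2.63 (adjusted p = 0.018). AT5G23830 differed by 1.13 after resupply, against -1.06 before, a change of 2.19 (adjusted p = 0.0309). LTP4, the lipid transfer protein gene inside the range, differed by 2.02 after resupply, against -1.80 before, a change of 3.82 (adjusted p = 0.0158).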

How the results depend on the processing

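Counts of calls outside the range depended on the background correction and on the fold threshold: normexp gave 170 higher and 124 lower, normexp with quantile normalization 91 and 209, and calls shared by processed signal and normexp, chosen after seeing the data, were 164 and 122, against 331 and 445. The offset of normexp pulls dim log ratios towards 0 by construction. Without a minimum fold change the counts were 3127 higher and 4048 lower. Inside the range 226 genes were called higher with normexp and quantile normalization, 735 with the test against 0.5 and 919 without a minimum, against 386, and the list members called numbered 263 without a minimum. Leaving out each array in turn gave 300 to 367 higher and 402 to 497 lower outside the range, 373 to 400 higher inside, 66 to 82 list members called and -3.02 to -2.72 for AO. Among the 148 genes named by rule, signs turned with normexp for AT1G59030 (0.00), AT2G44390 (0.05), AGP3 (0.16), PP2-A7 (0.09), WRKY59 (0.23), NRT2.1 (0.35), AG (0.50) and AT5G52730 (0.49). In this set they also turned within the slide of both replicates 3 for bHLH39 (0.86) and bHLH101 (0.46), where the cause was not tested. Of the flagged genes outside this set, LAC8 (0.63) and AT5G23830 (0.04) turned with normexp too. With the replicate block 330 genes were called higher and 440 lower outside the range, and AO stayed at -2.85. Of the 148 genes named by rule, the block changed no call but that of YLS9 (adjusted p = 0.0613, limma). AT5G23830, flagged above and outside this set, also lost its call (adjusted p = 0.0596, limma). Promoter motif counts were not run, since no promoter sequences were used here. The number of arrays and, for dim probes, the background limit what these data can show.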

Other observations

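Counts of calls by gene symbol are given for some large families outside the range, where 1.68% of all genes tested were called higher and 2.26% lower. Receptor-like proteins (RLP) gave 8 genes called lower and 1 higher of 47 tested (median -0.45), glutamate receptor-like channels (GLR) 4 lower and none higher of 13 (median -0.39), and glutathione transferases of the phi class (GSTF) 3 lower and none higher of 12 (median -0.31). The CRK symbol gave 9 lower and none higher of 37. MYB factors had 4 genes called higher and none lower of 76, JAZ proteins 3 and none of 10, and NAC factors 5 higher and 2 lower of 54. UDP-glycosyltransferases (UGT) gave 4 higher and 7 lower of 50, and cytochrome P450 genes (CYP) 2 higher and 8 lower of 147. Several of these shares lie near those over all genes. Families were read from symbols after the values were seen, and no family was tested. In RefSeq names, the word "protein kinase" stood with 164 tested genes, of which 4 were called higher and 9 lower, and "ubiquitin" with 107, of which none was called. Only 43.5% of the genes tested outside the range had such a name.

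Of 3143 probes well above background without a RefSeq gene, 97 were at least 2-fold higher and 52 at least 2-fold lower in AOpro(mut)-AO shoots with arrays that did not overlap. They were not tested. Among the 19654 genes tested outside the range, 329 were called higher and 441 lower with arrays that did not overlap. Inside the range, 38.1% of genes were called higher. Probes without a gene have no locus here, so those from the range could not be set apart.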
